A study of Mus musculus with 6 samples.

Results

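The genes described here are the proteasome subunits and the factors that assemble them, in primary mouse muscle satellite cell cultures. They were taken as every protein-coding gene whose symbol is Psma, Psmb, Psmc, Psmd, Psme, Psmf or Psmg followed by digits only. This gave 48 genes of the 27179 in the count table. Psmc3ip and Psme3ip1, whose symbols go on after the digit and which are not subunits, were left out. RNA had been sequenced from 6 libraries, 3 of cells given recombinant human MG53 (rhMG53) and 3 of cells given bovine serum albumin (BSA), the vehicle control, each for 72 h. All cells came from the hindlimb muscles of wild-type C57BL/6 mice, were grown in DMEM with serum and bFGF, and are called ageing in the labels, which give no age in numbers and no dose of the protein. MG53, the product of Trim72 in mice, is a muscle protein known for resealing damaged cell membranes.

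Total gene counts were 17374151 to 19827476 in the rhMG53 libraries and 17898768 to 22738745 in the BSA libraries. The 3 libraries of a group are given as biological replicates, without the animal or culture behind each. The p-values therefore measure only how these libraries vary, which may be technical in part. The labelled cell type was checked against 8 muscle markers. Pax7, the transcription factor that defines satellite cells, stood at 8.44 ± 1.30 CPM (counts scaled to library size) with rhMG53 and 10.03 ± 0.990 CPM with BSA (SD, n = 3 each). Myh3, the embryonic myosin heavy chain of differentiating fibres, stood at 20527 ± 2556 CPM with rhMG53 and 22392 ± 464.7 CPM with BSA, so the cultures held differentiated muscle cells and not satellite cells alone. These were the most negative of the 8 log2 fold changes (-0.25 for Pax7 and -0.13 for Myh3), of which 3 were positive and 5 negative, with a median of -0.0068 and 0 past the test in edgeR, also at an unadjusted p under 0.05. In such bulk samples, fewer cells of a type and less RNA per cell cannot be told apart.

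The proteasome is the barrel-shaped protease that degrades most proteins tagged with ubiquitin. Its 20S core is built of outer rings of alpha subunits (Psma genes) and inner rings of beta subunits (Psmb genes), and a 19S cap with a ring of ATPases (Psmc) and non-ATPase subunits (Psmd) recognises, unfolds and feeds in the substrate. In muscle, the ubiquitin-proteasome system is known for the breakdown of myofibrillar proteins during atrophy and for protein turnover during differentiation. Interferon-gamma can replace the catalytic beta subunits Psmb6, Psmb7 and Psmb5 by Psmb9, Psmb10 and Psmb8, which forms the immunoproteasome known for making peptides for MHC class I. Transcription of the standard subunits is known to be raised, when proteasomes are inhibited, by NRF1 (Nfe2l1) and, under oxidative stress, by NRF2 (Nfe2l2), which bind antioxidant response elements (AREs).

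Promoter windows, from 250 bases before to 50 bases after an annotated start, were read from RefSeq (GRCm38.p6) and found for 40 of the 48 genes, 43 windows in all. Those of a pair of standard catalytic subunits and of their immunoproteasome counterparts are shown because the levels of these genes stood far apart. Each is written 5′ to 3′ on the gene's strand, with capitals for a match, on either strand, to the ARE (TGACNNNGC), the CCAAT box (CCAAT), the STAT-binding GAS element (TTCNNNGAA) or the interferon-stimulated response element (GAAA, any 2 bases, GAAA). No matches overlapped in these windows. The windows are chr14:54617946-54618245 on the minus strand for Psmb5, chr11:70525107-70525406 on the plus strand for Psmb6, chr17:34197945-34198244 on the plus strand for Psmb8 and chr17:34187281-34187580 on the minus strand for Psmb9.
Psmb5: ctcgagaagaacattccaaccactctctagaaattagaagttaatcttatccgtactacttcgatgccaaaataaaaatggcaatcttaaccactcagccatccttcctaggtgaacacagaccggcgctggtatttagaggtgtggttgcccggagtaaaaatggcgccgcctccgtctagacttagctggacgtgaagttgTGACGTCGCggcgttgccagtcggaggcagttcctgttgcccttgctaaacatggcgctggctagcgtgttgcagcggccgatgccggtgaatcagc
Psmb6: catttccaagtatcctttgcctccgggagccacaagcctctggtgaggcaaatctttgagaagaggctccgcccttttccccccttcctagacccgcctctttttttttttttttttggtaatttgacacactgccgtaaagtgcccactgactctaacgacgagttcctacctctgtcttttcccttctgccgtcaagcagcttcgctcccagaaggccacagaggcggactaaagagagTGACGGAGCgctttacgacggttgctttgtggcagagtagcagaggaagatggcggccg
Psmb8: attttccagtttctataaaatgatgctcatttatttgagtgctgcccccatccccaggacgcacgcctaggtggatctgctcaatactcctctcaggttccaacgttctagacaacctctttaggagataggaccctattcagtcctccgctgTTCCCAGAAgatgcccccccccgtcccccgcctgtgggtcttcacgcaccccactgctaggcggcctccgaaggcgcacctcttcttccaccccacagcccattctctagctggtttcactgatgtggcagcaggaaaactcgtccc
Psmb9: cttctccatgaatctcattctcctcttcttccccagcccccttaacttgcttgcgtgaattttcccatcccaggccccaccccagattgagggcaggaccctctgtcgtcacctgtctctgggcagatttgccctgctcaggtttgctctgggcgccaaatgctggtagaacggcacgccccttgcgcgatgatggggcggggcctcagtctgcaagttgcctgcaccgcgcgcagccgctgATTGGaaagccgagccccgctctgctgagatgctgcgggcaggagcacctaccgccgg

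The capitals mark an ARE match that begins 47 bases before the start of Psmb5 and 9 bases before that of Psmb6, a GAS match 97 bases before the start of Psmb8, and a CCAAT box, on the other strand, 8 bases before that of Psmb9. The window of the immunoproteasome gene Psmb10, not shown, held no match to any of these motifs or to the interferon-stimulated response element. An ARE match was in 6 of the 43 windows of proteasome genes (14%), those of Psmb5, Psmb6, Psmc6, Psmd9, Psmd12 and Psme4, against 12.4% of all 32851 windows. A CCAAT box was in 32.6% of the windows of proteasome genes and in 37.4% of all windows. A GAS match was in 3 windows (6.98%, against 8.30% of all) and an interferon-stimulated response element in 5 (11.6%, against 3.44% of all). The GAS matches were in Psmb8, Psmd2 and Psmg1. The response element matches were in Psmb3, Psmd4, Psmd9, Psme1 and Psmg4, and not in Psmb8, Psmb9 or Psmb10. These are matches of letters and not binding sites. By position, the 48 genes lie on 16 chromosomes, 8 of them on chromosome 11. Psmb9 (chromosome 17, 34182030 to 34187330) lies 225 bases from Tap1, the MHC class I peptide transporter gene, and Psmb8 (34198195 to 34201454) 969 bases beyond the other end of Tap1, in mm10 coordinates.

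In RNA, both groups held the standard proteasome genes at a high level and the immunoproteasome genes Psmb8 and Psmb9 at a very low one. The immunoproteasome gene Psmb10 averaged 12.9 CPM over the 6 libraries. The 35 alpha, standard beta, ATPase and non-ATPase genes, called here the standard set, include Psma8 and the 19S chaperone genes Psmd5, Psmd9 and Psmd10. They summed to 5166, 5596 and 5366 CPM in rhMG53 replicates 1 to 3 and 5325, 5553 and 5421 CPM in BSA replicates 1 to 3. The groups overlapped, and the means were 5376 ± 215.3 CPM with rhMG53 and 5433 ± 114.1 CPM with BSA (SD, n = 3 each). These genes took 0.540% of all counts in each group.

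**Figure D1:**
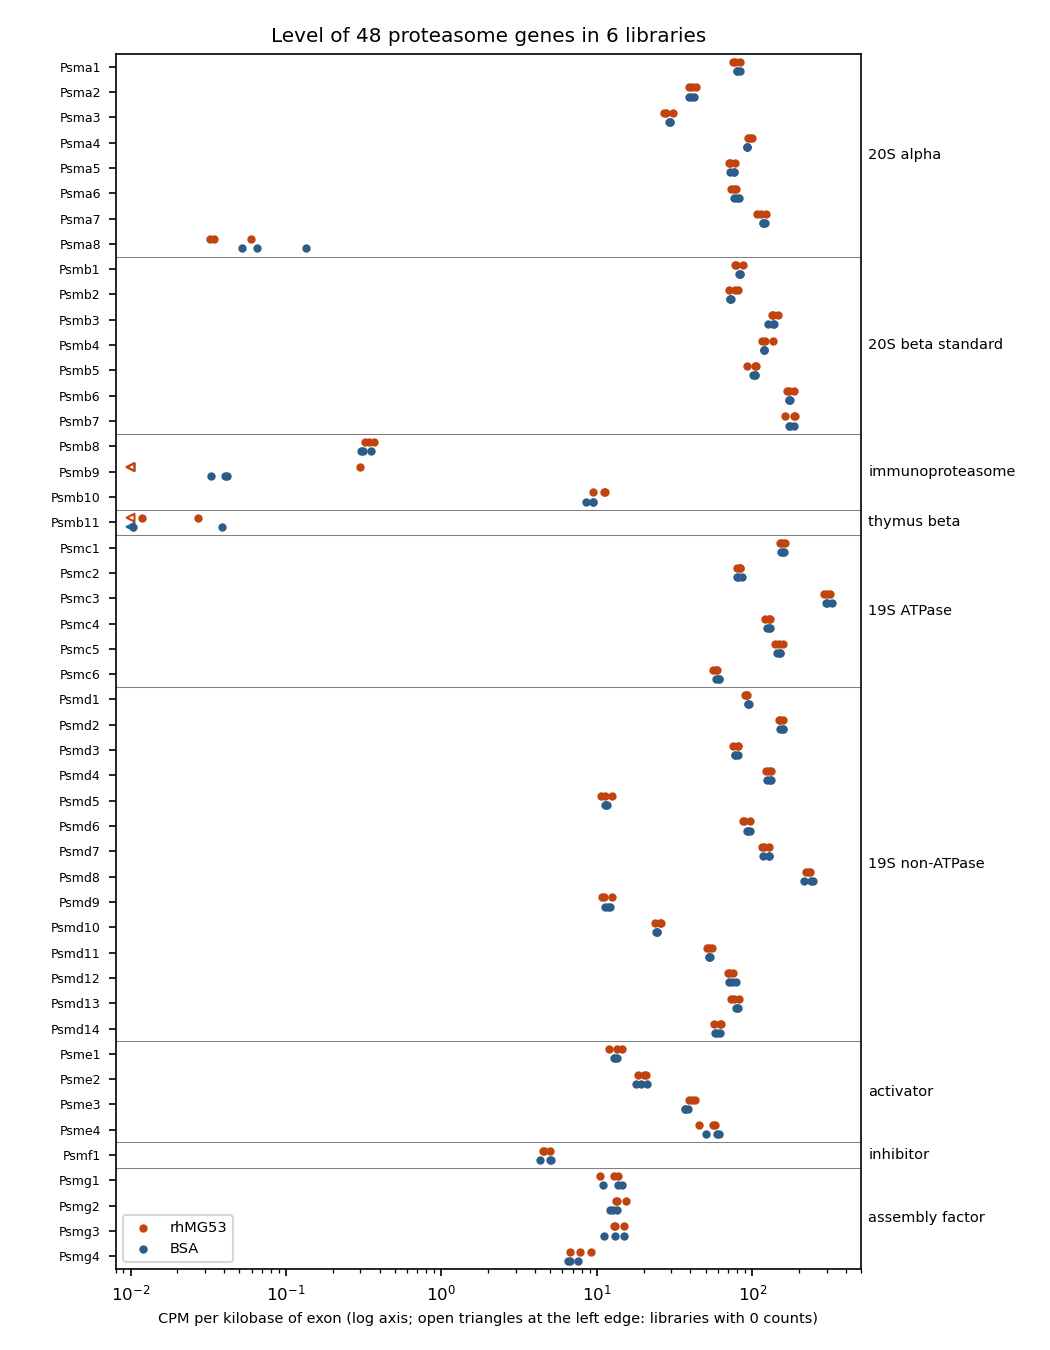
Level of each of the 48 proteasome genes in CPM per kilobase of exon (log axis), 1 point per library, with rhMG53 above BSA in each row and genes grouped by role. The 31 structural subunits of the standard particle among these genes sit between 29.1 and 305.9, while Psma8, Psmb8, Psmb9 and Psmb11 lie below 0.4 in mean level in both groups.

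Levels of different genes were compared as CPM per kilobase of exon, averaged over the 6 libraries. Of the 31 structural subunits of the standard particle, 24 lay between 70 and 180 on this scale, and the range ran 10.5-fold, from 29.1 for Psma3, an alpha ring subunit, to 305.9 for Psmc3, one of the ATPases. Psmc3 stood at 475.9, 520.1 and 494.6 CPM in rhMG53 replicates 1 to 3, against 495.1, 531.9 and 484.9 CPM in BSA replicates 1 to 3. Psmd8, a lid subunit of the 19S cap, came next per length, at 229.4 ± 8.64 CPM per kilobase with rhMG53 and 234.1 ± 16.4 with BSA. The trypsin-like catalytic subunit Psmb7 (178.7 ± 13.7 with rhMG53 and 177.3 ± 6.57 with BSA) and the caspase-like catalytic subunit Psmb6 (175.2 ± 10.4 with rhMG53 and 172.9 ± 1.14 with BSA) followed, and these neighbours did not differ beyond their spread. The chymotrypsin-like catalytic subunit Psmb5 stood lower, at 100.8 ± 6.92 CPM per kilobase with rhMG53 and 103.1 ± 1.44 with BSA. The 7 standard beta genes lay within 2.39-fold of each other, from Psmb2 (74.5) to Psmb7 (178.0), with the RefSeq-paired lengths.

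The 3 Psmd genes known as assembly chaperones of the 19S base, and not as parts of the finished particle, were the lowest of the Psmd genes. Psmd5 averaged 11.5, Psmd9 11.6 and Psmd10 24.5 CPM per kilobase over the 6 libraries, and the Psmd5 and Psmd9 levels did not differ beyond their spread. The chaperone genes of the 20S core, Psmg1 to Psmg4, lay between 7.40 (Psmg4) and 13.4 (Psmg2) CPM per kilobase. Psmf1, which encodes an inhibitor of the isolated 20S core, stood at 4.75. The exon lengths used are those of transcripts paired with a RefSeq mRNA. With all basic protein-coding transcripts 10 genes had another length, and Psmb1 was the one that moved by over 1.5 times, to 42.1 instead of 82.03 CPM per kilobase. Some orders turned with those lengths. Psmb1 became the lowest standard beta gene, Psmd8, at 159.0, lay below Psmb7 and Psmb6, Psma7, at 89.9, lay below Psma4, at 94.6, and Psmg2, at 10.9, lay below Psmg1 and Psmg3. Pseudogenes of Psma5, Psmb5, Psmb6 and Psmb7 are annotated, and how reads shared with such copies were counted is not given in the sources used here, so the levels of these genes are uncertain to that extent.

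No proteasome gene passed the test between rhMG53 and BSA, and the intervals of the genes of the standard set were narrow. Of the 48 genes, 45 had counts high enough to be tested, and 0 of them passed at an adjusted p of 0.05 in edgeR's quasi-likelihood test over all 13769 tested genes, where 3 genes in all did (0.0218%). In DESeq2 and limma voom 0 members passed as well. At an unadjusted p under 0.05 edgeR gave 1 member, limma voom 1 and DESeq2 0, where 5.20% of all tested genes were past that mark in edgeR. The log2 fold change was positive for 20 of the 45 and negative for 25, with a median of -0.0048, beside a positive share of 50.5% and a median of 0.0014 over all tested genes. All 34 tested alpha, standard beta, ATPase and non-ATPase genes had fold changes between 0.954 and 1.06. Their 95% intervals reached from 0.869-fold to 1.17-fold at the widest.

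**Figure D2:**
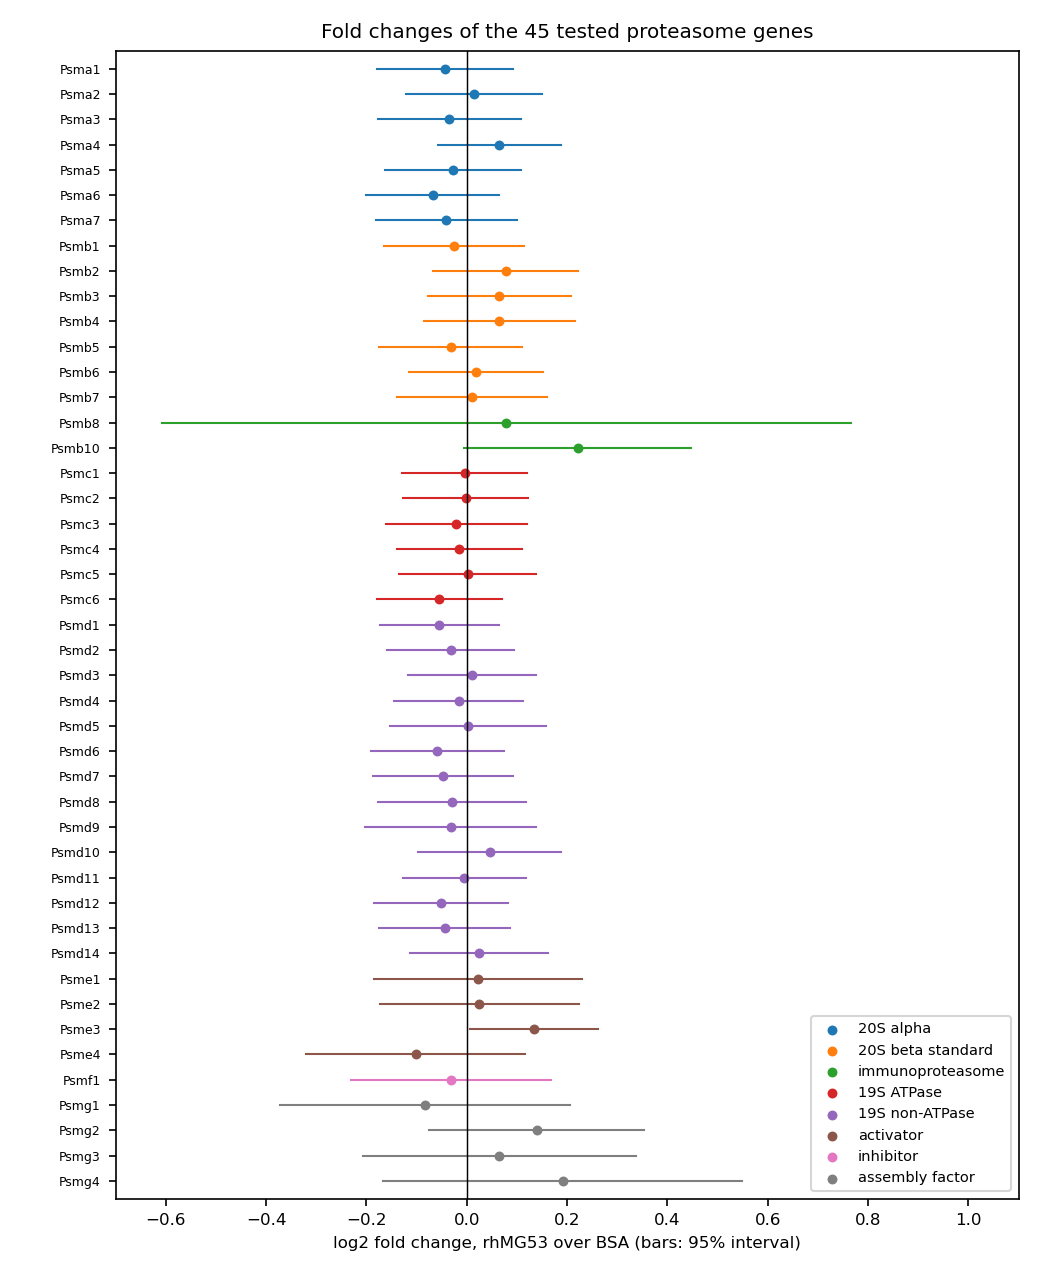
Log2 fold change of rhMG53 over BSA for the 45 tested proteasome genes, as points with 95% intervals from edgeR, coloured by role. The intervals of the 34 alpha, standard beta, ATPase and non-ATPase genes stay within 0.869-fold to 1.17-fold on a linear scale, while that of Psmb8, with 9 to 13 counts per library, reaches from -0.61 to 0.77 on the log2 scale.

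In the alpha ring, 2 of the 7 tested genes had a positive and 5 a negative log2 fold change, with a median of -0.034. Psma4 stood at 112.1, 116.4 and 109.7 CPM in rhMG53 replicates 1 to 3, against 107.3, 108.4 and 107.5 CPM in BSA replicates 1 to 3. All rhMG53 libraries lay above all BSA libraries, by 0.065 on the log2 scale (SE 0.055, 95% interval -0.057 to 0.19, adjusted p = 0.981 in edgeR). Psma7, the alpha gene with the highest level per length by the RefSeq-paired transcripts, stood at 97.5, 111.8 and 104.6 CPM with rhMG53 and 106.4, 109.5 and 106.9 CPM with BSA. There the groups overlapped, with the rhMG53 libraries holding both the lowest and the highest value. Psma8, the alpha subunit of spermatogenic cells, was too low to test. It had 2, 1 and 1 counts in rhMG53 replicates 1 to 3 and 2, 4 and 2 counts in BSA replicates 1 to 3.

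In the standard beta ring 5 genes had a positive and 2 a negative log2 fold change, with a median of 0.019. Psmb5 stood at 83.6, 95.2 and 93.2 CPM with rhMG53 and 92.8, 91.3 and 93.9 CPM with BSA (log2 fold change -0.032, 95% interval -0.17 to 0.11). Psmb6 stood at 132.7, 148.9 and 137.7 CPM with rhMG53 and 137.2, 137.8 and 139.0 CPM with BSA (0.019, interval -0.11 to 0.15). Psmb7 stood at 189.3, 219.3 and 213.4 CPM with rhMG53 and 199.6, 214.2 and 203.3 CPM with BSA (0.011, interval -0.14 to 0.16). For each of these 3 catalytic genes the rhMG53 values spanned those of BSA, with rhMG53 replicate 1 lowest and replicate 2 highest. Psmb2, the structural beta gene with the smallest p of the ring, stood at 61.1, 69.9 and 66.2 CPM with rhMG53 and 61.6, 62.1 and 63.0 CPM with BSA (0.078, interval -0.067 to 0.22, adjusted p = 0.980 in edgeR).

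Of the immunoproteasome genes Psmb10 was expressed at a modest level, Psmb8 near the limit of testing and Psmb9 below it. Psmb10 (chromosome 8, 105935728 to 105938392), the trypsin-like subunit that replaces Psmb7, stood at 12.4, 14.8 and 14.6 CPM in rhMG53 replicates 1 to 3, against 12.4, 12.3 and 11.1 CPM in BSA replicates 1 to 3. The lowest rhMG53 library, replicate 1, lay just above the highest BSA library, replicate 1, with 12.42 and 12.38 CPM. This gave the largest log2 fold change of the 45 genes, 0.22 (SE 0.10, 95% interval -0.0045 to 0.45), which did not pass (edgeR adjusted p = 0.950). Per length, Psmb10 stood at 5.95 ± 0.129% of the level of Psmb7 with rhMG53 and 5.14 ± 0.329% with BSA (SD, n = 3 each). Psmb8, the chymotrypsin-like counterpart of Psmb5, had 11, 11 and 9 counts with rhMG53 and 13, 9 and 9 counts with BSA. That was 0.341 ± 0.030% of the level of Psmb5 per length with rhMG53 and 0.314 ± 0.026% with BSA, and its groups overlapped.

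Psmb9, the immunoproteasome counterpart of Psmb6, had 0, 0 and 7 counts in rhMG53 replicates 1 to 3 and 1 count in each BSA library. The summed counts were 7 with rhMG53 (0.126 CPM, exact Poisson interval 0.0508 to 0.260) and 3 with BSA (0.0513 CPM, interval 0.0106 to 0.150), intervals that cover counting error only. A count of 0 in rhMG53 replicates 1 and 2 allows up to 0.151 and 0.163 CPM, taken as 3 counts per library. Tap1, the neighbour of Psmb9, stood at 5.60, 5.72 and 6.72 CPM with rhMG53 and 4.46, 4.24 and 5.22 CPM with BSA (log2 fold change 0.37, SE 0.14, adjusted p = 0.946 in edgeR). All rhMG53 libraries lay above all BSA libraries for Tap1. Replicate 3 of rhMG53 was the highest library for Tap1 and, on 7 counts, for Psmb9. For Psmb8, on the other side of Tap1, it was the lowest rhMG53 library, at 0.522 CPM on 9 counts. Psmb11, the beta subunit of thymic cortical cells, had 1, 0 and 2 counts with rhMG53 and 1, 0 and 3 with BSA.

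No gene listed for MHC class I presentation or the interferon-gamma response passed the test. Of the 14 listed genes, Tap1 among them and all tested, 0 passed in edgeR (1 at an unadjusted p under 0.05, Tap1), 8 had a positive and 6 a negative log2 fold change, and the median was 0.025. The transcription factor gene Irf1 stood at 10.6, 9.75 and 9.91 CPM with rhMG53 and 8.49, 7.12 and 9.73 CPM with BSA (0.25, SE 0.13, adjusted p = 0.965 in edgeR). The groups were apart by a narrow gap, between rhMG53 replicate 2 and BSA replicate 3. Tap1 and Irf1 were the 2 of the 14 listed genes with all rhMG53 libraries above all BSA libraries, beside 5.94% of all tested genes. Leukocytes are known for a high content of immunoproteasomes. Of 10 leukocyte markers 3 were high enough to be tested and 1, Cd52, was at 0 counts in all 6 libraries. Their summed level was 6.78 to 10.7 CPM in rhMG53 libraries and 6.33 to 7.78 CPM in BSA libraries. It was highest in rhMG53 replicate 2, where Lyz2 stood at 3.98 CPM, against 0.565 to 0.858 CPM in the other libraries. The summed level of 4 endothelial markers, all too low to test, was 0.959 to 1.33 CPM in rhMG53 libraries and 0.621 to 0.884 CPM in BSA libraries. These sums did not overlap, but each marker had at most 10 counts in a library, and for each marker alone the groups overlapped. Of 6 fibroblast markers 5 were tested, with 4 positive and 1 negative log2 fold changes, and 0 passed in edgeR. Their summed level, mostly Col1a1, was 741.2 to 843.3 CPM in rhMG53 libraries and 646.2 to 820.5 CPM in BSA libraries, which overlapped. Dcn was the 1 fibroblast marker with all rhMG53 libraries above all BSA libraries (0.195, SE 0.090). The part of leukocyte, endothelial or fibroblast RNA in the Psmb10 and Tap1 values was not tested.

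Among the 19S ATPase genes, 1 of 6 had a positive log2 fold change, 0.0017 for Psmc5, and the median was -0.0090. Psmc6 had the smallest p of the ring, at 129.7, 133.2 and 125.3 CPM with rhMG53 and 136.8, 135.6 and 130.5 CPM with BSA (-0.054, SE 0.056, adjusted p = 0.983 in edgeR). The groups overlapped. Psmc3 had a log2 fold change of -0.021 (SE 0.064). Among the 14 non-ATPase genes, 4 had a positive and 10 a negative log2 fold change, with a median of -0.031. Psmd1, a large scaffold subunit of the 19S base, stood at 277.7, 286.5 and 283.3 CPM with rhMG53 and 291.6, 298.3 and 290.5 CPM with BSA. All rhMG53 libraries lay below all BSA libraries, a difference of -0.055 on the log2 scale (SE 0.054, interval -0.17 to 0.064, adjusted p = 0.983 in edgeR). Psmd8 stood at 332.4, 357.8 and 350.3 CPM with rhMG53 and 326.2, 374.0 and 361.5 CPM with BSA, groups that overlapped.

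Of the alternative caps, the nuclear activator gene Psme3 (chromosome 11, 101316213 to 101323537) was the 1 member with an unadjusted p under 0.05. Psme3 stood at 113.1, 108.9 and 104.7 CPM in rhMG53 replicates 1 to 3, against 98.2, 102.0 and 97.6 CPM in BSA replicates 1 to 3. All rhMG53 libraries lay above all BSA libraries, and the log2 fold change was 0.13 (SE 0.058, 95% interval 0.0060 to 0.26), which did not pass (adjusted p = 0.950 in edgeR). Psme4, whose product caps proteasomes in the nucleus and is known for histone degradation in the testis, was the most abundant activator gene per length and the most variable. Psme4 stood at 363.3, 292.9 and 371.0 CPM with rhMG53 and 382.7, 394.4 and 325.1 CPM with BSA (-0.10, SE 0.099, interval -0.32 to 0.12). The log2 fold change was -0.0014 without rhMG53 replicate 2 and -0.18 without BSA replicate 3. The lowest value of each group, in rhMG53 replicate 2 and BSA replicate 3, stood well below the other values of that group. Psme1 and Psme2, the interferon-inducible pair that caps immunoproteasomes, lie 5912 bases apart on chromosome 14 and had log2 fold changes of 0.023 and 0.025.

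**Figure D3:**
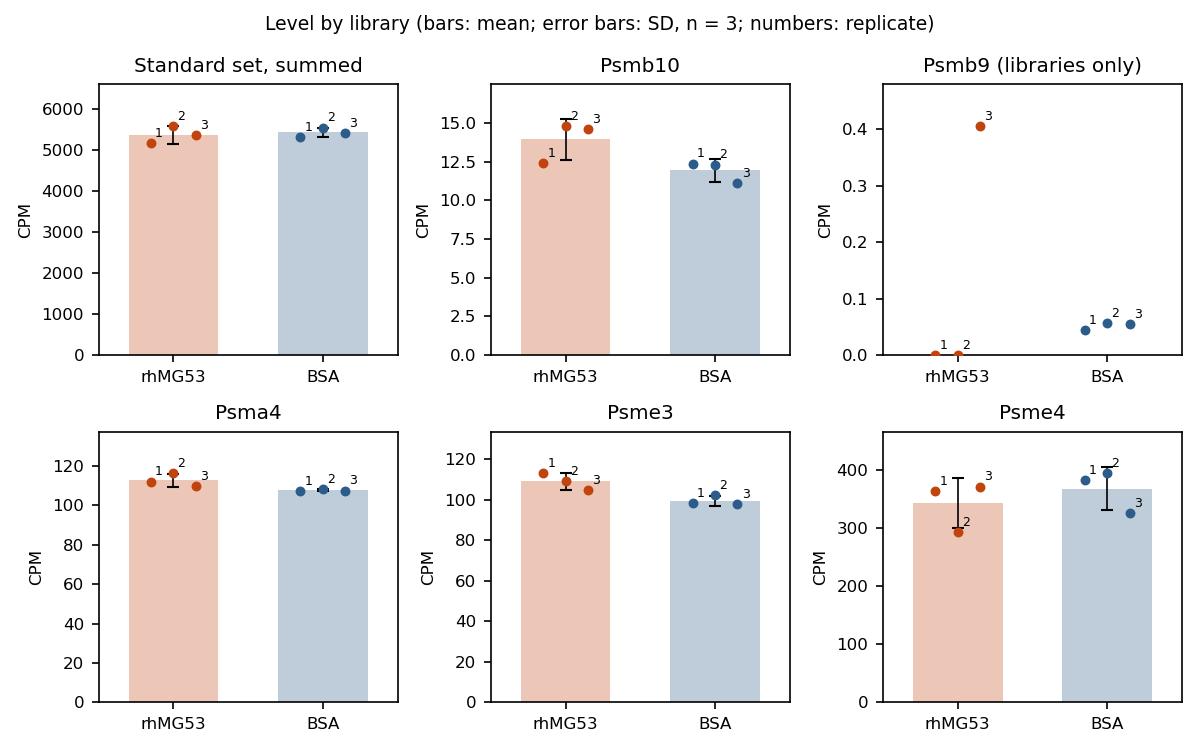
CPM in each library for the summed standard set of 35 genes, Psmb10, Psmb9, Psma4, Psme3 and Psme4, with points numbered by replicate and bars and error bars for the mean and SD of 3 libraries (Psmb9 as points alone). The groups do not overlap for Psmb10, Psma4 and Psme3, and the 0.406 CPM of Psmb9 in rhMG53 replicate 3 is 7 counts.

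In all, 3 of the 45 tested genes, Psma4, Psmb10 and Psme3, had all rhMG53 libraries above all BSA libraries, where 5.94% of all tested genes did. Psmd1 was the 1 gene with all rhMG53 libraries below, where 4.83% of all tested genes did. Neither count was read as a result about the proteasome genes.

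The inhibitor gene Psmf1 stood at 19.1, 17.2 and 17.4 CPM with rhMG53 and 19.1, 16.5 and 19.2 CPM with BSA, groups that overlapped (-0.031, interval -0.23 to 0.17). Of the 20S assembly factor genes 3 of 4 had a positive log2 fold change. Psmg2 stood at 16.4, 13.9 and 14.2 CPM with rhMG53 and 12.8, 13.4 and 14.3 CPM with BSA (0.14, SE 0.097, adjusted p = 0.973 in edgeR). Replicate 1 set its rhMG53 mean, and the groups overlapped. The Psmg genes, with 64 to 342 counts per library, had SEs of 0.097 to 0.16 on the log2 scale, larger than those of the 34 tested genes of the standard set (0.054 to 0.077).

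Genes that work with the proteasome but carry other names did not pass either. Of the proteasome partners, which include receptors, deubiquitinases and the assembly factor Pomp, 10 were tested (7 with positive and 3 with negative log2 fold changes, median 0.0089) and 0 passed in edgeR, with 0 at an unadjusted p under 0.05. Pomp, the maturation factor of the 20S core, had a log2 fold change of 0.089 (SE 0.065), and Uchl5, a deubiquitinase of the 19S cap, one of -0.13 (SE 0.094). The listed partner Paaf1 was not analysed here. Of 15 genes for ubiquitin, E1 enzymes and shuttle factors 0 passed in edgeR, with 0 at an unadjusted p under 0.05, 9 positive and 6 negative log2 fold changes and a median of 0.031. The ubiquitin ligase gene Stub1 had a log2 fold change of 0.14 (SE 0.075).

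Of 13 regulators of proteasome gene transcription 0 passed in edgeR, with 6 positive and 7 negative log2 fold changes and a median of -0.0028. In edgeR 2, Maff and Ogt, had an unadjusted p under 0.05, beside 5.20% of all tested genes. All rhMG53 libraries lay above all BSA libraries for 2, Nfe2l2 and Maff, beside 5.94% of all tested genes. Neither count was read as a result about the regulators. Nfe2l1, which encodes NRF1, stood at 836.2 ± 12.9 CPM with rhMG53 and 822.4 ± 21.8 CPM with BSA (0.024, SE 0.058). Nfe2l2, which encodes NRF2, stood at 100.2, 92.6 and 94.0 CPM with rhMG53 and 88.8, 82.6 and 90.9 CPM with BSA. There was no overlap, and the log2 difference was 0.13 (SE 0.063, edgeR adjusted p = 0.965). Maff, a small MAF protein that pairs with NRF1 and NRF2, stood at 18.2, 18.8 and 18.5 CPM with rhMG53 and 15.8, 15.9 and 15.5 CPM with BSA. The groups did not overlap, and the log2 difference was 0.23 (SE 0.076, edgeR adjusted p = 0.935). Ogt, the O-GlcNAc transferase that modifies NRF1, stood at 182.2, 152.6 and 153.8 CPM with rhMG53 and 199.7, 175.4 and 188.4 CPM with BSA (-0.21, SE 0.080, adjusted p = 0.946 in edgeR). The groups overlapped in rhMG53 replicate 1.

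Most proteasome genes had the same libraries as their lowest and highest. Of the 34 tested genes of the standard set, 25 were lowest in rhMG53 replicate 1 and 23 were highest in rhMG53 replicate 2. The share of all tested genes lowest or highest in these libraries was not counted, so this order is not shown to be particular to proteasome genes. Over the 45 tested genes the median deviation of log2 CPM from a gene's own mean was -0.064, 0.067 and -0.0069 in rhMG53 replicates 1 to 3 and -0.014, 0.025 and 0.0086 in BSA replicates 1 to 3. The spread within a group was small, with a median coefficient of variation of 4.69%, beside 8.63% over all tested genes and 5.58% over the 5178 tested genes with a mean at least that of Psmd9, the lowest of the 34 tested genes of the standard set by CPM. Counting error alone gives a median of 2.19% for the 45 genes.

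**Figure D4:**
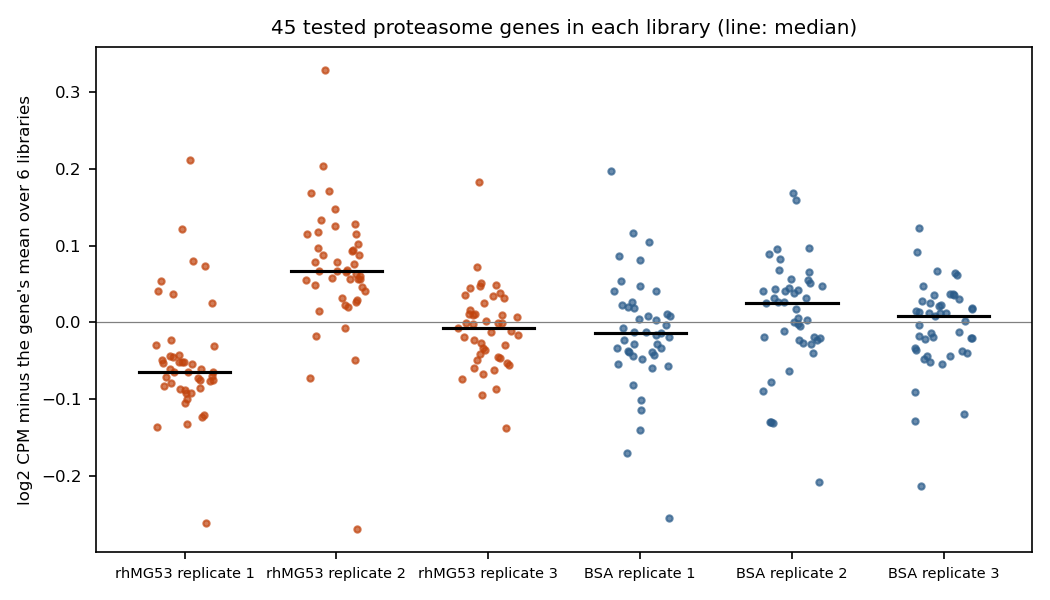
Deviation of log2 CPM from each gene's mean over the 6 libraries, for the 45 tested proteasome genes (points) in each library, with the median as a line. The medians of rhMG53 replicates 1 and 2, at -0.064 and 0.067, lie farther apart than any BSA medians do.

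The deviations were also set against exon length. In rhMG53 replicate 2 the Spearman correlation between deviation and exon length was -0.48 across the 45 proteasome genes and -0.52 across 12591 tested genes with a length, with genes sharing the library and its depth. Over the proteasome genes and over all genes it was 0.22 and 0.32 in rhMG53 replicate 1, and -0.15 and 0.12 in rhMG53 replicate 3. It was 0.26 and 0.41 in BSA replicate 1, 0.28 and 0.17 in BSA replicate 2, and -0.016 and -0.28 in BSA replicate 3. With 0.5 added to each CPM, the median deviation in rhMG53 replicate 2 was 0.088 for the 23 genes of at most 1469 bases and 0.056 for the 22 longer ones. In rhMG53 replicate 1 these medians were -0.072 and -0.053. Psme4, with 6491 bases of exon the longest of the proteasome genes, was lowest in rhMG53 replicate 2, where most subunit genes were highest. Psmd5, the next longest with 4397 bases, was highest in that library, at 55.0 CPM. The part of length in the subunits' shared deviation was not tested. Without rhMG53 replicate 1, 31 of the 45 genes had a positive log2 fold change and the median was 0.020, and without rhMG53 replicate 2, 9 did and the median was -0.033.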

How the data were processed

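Libraries were made from total RNA with a directional poly(A) kit, per the labels' protocols. The submitters' processing notes name mm10, STAR, featureCounts and edgeR. Not given in the sources used here: tool versions, annotation, strand setting and handling of multiply mapped reads. The deposited table holds raw whole-number counts for each NCBI gene ID, and RefSeq (GRCm38.p6) named 25275 of the 27179 IDs.

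Genes were kept with filterByExpr (minimum count 10, minimum total count 15), scaled by TMM and tested with treatment as the only term in edgeR 4.0.16 (R 4.3.3), 2-sided, with p-values adjusted by Benjamini-Hochberg across the 13769 genes kept. CPM use TMM-scaled totals. Shares of all counts use plain totals. The SE is the log2 fold change divided by the root of F. Lengths come from GENCODE M21, as the union of the exons of a gene's transcripts. The code of the fit was run on simulated counts with known changes, drawn independently at a fixed dispersion. They lacked the shifts shared between genes seen in these libraries, so the run does not bear on the intervals here. Libraries were grouped by their treatment label, and all carry the batch label Day 3.

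Alternatives were other scaling factors and filters, DESeq2 1.42.0, limma voom 3.58.1, robust moderation, a replicate term and leaving out each library. The other exon length was added after the data were seen. The members and gene lists were chosen with earlier results of these data known. Genes described in full are the 6 catalytic pair members, the member of lowest p and of highest level per length of each role, members with an unadjusted p under 0.05, members too low to test, and the listed genes of lowest p, of which 1 is not reported here. Further genes, such as Psmd5, Psmd9, Psmd10, Psme1, Psme2, Nfe2l1 and Nfe2l2, were named after their values were seen.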

Additional observations from a re-analysis of the deposited data

How the results depend on the processing

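The count of proteasome genes past the threshold was 0 under each alternative run. The number of all genes past it was 6 with no filter beyond a total of 1 count, 5 in DESeq2 and 0 with the replicate number as a block, and it was 0 to 4 when 1 library was left out (0 without BSA replicate 2). Same-numbered libraries had correlations of 0.30, -0.18 and -0.21 in their deviations from the group means, so the numbers were not taken as pairs. Between libraries of different numbers the correlations ran from -0.34 to 0.43, the highest for rhMG53 replicate 2 with BSA replicate 3. The replicate block changed no call of a proteasome gene, with 19 positive log2 fold changes and a median of -0.0054. When 1 library was left out, 9 to 31 proteasome genes had a positive log2 fold change and their median ran from -0.033 to 0.020. Over other scalings, filters and tests it was 16 to 24 genes and -0.017 to 0.010. The summed standard set differed by -1.05% between rhMG53 and BSA, and by -3.08% to 0.849% when 1 library was left out. The summed immunoproteasome genes, nearly all Psmb10, differed by 17.04%, and by 13.2% to 23.7% when 1 library was left out. The groups overlapped in this sum, at 12.976, 15.421 and 15.534 CPM with rhMG53 and 12.995, 12.882 and 11.659 CPM with BSA. Leaving out 1 library turned the sign of 7 named genes, none of them past the threshold, with log2 fold changes of -0.091 to 0.0075 for Psma7, -0.069 to 0.023 for Psmb5, -0.030 to 0.054 for Psmb6, -0.031 to 0.072 for Psmb7, -0.055 to 0.020 for Psmc3, -0.083 to 0.013 for Psmd8 and -0.098 to 0.0043 for Psmf1. That of Psmb10 stayed positive, at 0.17 to 0.30, and that of Psme3 at 0.11 to 0.16. Others kept their sign but moved by over 1.5 times, to 0.041 for Psma4, 0.031 to 0.13 for Psmb2, 0.027 to 0.12 for Psmb8, -0.034 for Psmc6, -0.18 to -0.0014 for Psme4, 0.061 for Psmg2, 0.036 for Pomp, -0.23 to -0.070 for Uchl5, 0.093 for Stub1 and 0.15 for Irf1. At an unadjusted p under 0.05 the count of proteasome genes, 1, was 2 with plain library totals and 0 with upper-quartile factors, DESeq2, the block, or without rhMG53 replicate 2 or any 1 BSA library. With no filter beyond a total of 1 count, and without rhMG53 replicate 1, the 1 gene was Psmb10 and not Psme3. Depth limits Psmb8, Psmb9, Psma8 and Psmb11, which had at most 13 counts in a library.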
